A study of Mus musculus with 13 samples.

Results

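The cornified envelope is the insoluble protein shell that replaces the plasma membrane of keratinocytes at the skin surface. Precursors such as loricrin, involucrin and the small proline-rich proteins are cross-linked by transglutaminases, while filaggrin family proteins, corneodesmosin and lipids made by lipoxygenases, ceramide synthase 3 and the transporter Abca12 complete the barrier. Basal cell carcinoma (BCC) is a tumor of basal, undifferentiated keratinocytes, whereas most of these genes are known from differentiated ones. Which cells of a tumor gave their transcripts was not tested.

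Genes of this program were taken by symbol: the Sprr, Lce, Flg and Tchh families, Tgm1 to Tgm7, and a fixed set of single names for other envelope, filaggrin-processing, secreted and lipid-barrier genes. The table listed 62 rows with such symbols. Of these, 30 had a value in all 13 tumors and are the genes compared here, out of 16687 genes with a value in every tumor. The other 32 had values in the GEM-BCC tumors only. By role, the 30 genes were 12 envelope precursors, 2 filaggrin-processing proteases, 7 transglutaminases, 5 secreted or suprabasal proteins and 4 barrier lipid genes. The rule uses no measured value beyond this requirement. No row for Flg itself was used here.

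Bulk RNA sequencing compared genetically engineered mouse BCC (GEM-BCC, 9 tumors from 7 mice) with transplantable BCC (Tp-BCC, 4 tumors from 4 mice), all from female mice. GEM-BCC tumors arose intradermally in mice labeled Ptch1+/- K14-CreER2 p53fl/fl (CreERT2 in the study's methods), in which a tamoxifen-activated Cre driven by the keratin 14 promoter deletes p53, after 3 intraperitoneal doses of 300 µg tamoxifen and 4 Gy of X-ray. Tp-BCC tumors grew under the skin of the right flank of Ptch1+/-p53fl/fl recipients, each given 2000000 cells. All these cells trace back to 1 GEM-BCC tumor, so the 4 tumors sample 1 line. Both GEM2 and GEM3 were taken from the same animal, and so were GEM7 and GEM8. All GEM-BCC libraries were labeled batch 1 and all Tp-BCC libraries batch 2, so model, batch and tumor site cannot be told apart. Ages were not given in the labels.

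Libraries held 28075317 to 32629102 expected counts for GEM-BCC but 15388027 to 17494912 for Tp-BCC, so a gene at a given level is counted less precisely in Tp-BCC. Levels below are CPM, the usual per-library scaling of counts, with library sizes adjusted by the trimmed mean of M values (TMM), and fold changes are log2 of Tp-BCC over GEM-BCC with their SE. The labeled tissue was checked with its markers. The 4 basal and tumor keratins Krt5, Krt14, Krt15 and Krt17 summed to 11200 to 16700 CPM across GEM-BCC tumors, against 7170 to 19700 CPM across Tp-BCC, and 1 of them, Krt15, was called lower in Tp-BCC. The Hedgehog readout genes Gli1, Ptch1 and Hhip were not called, with adjusted P from 0.0809 to 0.139 (edgeR), and Gli1 was at 376 CPM or more in every tumor.

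Of the 30 genes, 19 had at least 10 counts in at least 4 tumors and could be tested. Calls required an adjusted P below 0.05 together with a log2 fold change beyond 2 in either direction. In Tp-BCC, 4 of the 19 were called lower (21.1%), against 3.21% of all 14390 genes tested, and 1 was called higher (5.26%), against 2.36%. The 4 lower genes were Sprr1a, Tgm5, Abca12 and Tgm4, and the higher gene was Tgm2. Tgm4 and Tgm5, as well as Lor, had no Tp-BCC tumor at 10 counts and met the filter through GEM-BCC tumors alone, so their share is not independent of the filter. With 10 counts required in 10 or more tumors, 2 of 13 genes were called lower, Sprr1a and Abca12. The share of all genes at this stricter filter is not given here, and the 3.21% belongs to the looser filter. At the looser filter but without the fold threshold, 5 of the 19 were lower (8.35% of all genes) and 1 was higher (11.1%). Of any size, 16 of the 19 log2 fold changes were below 0, against 51.4% of all genes, with a median of -1.15 against -0.03.

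**Figure D1:**
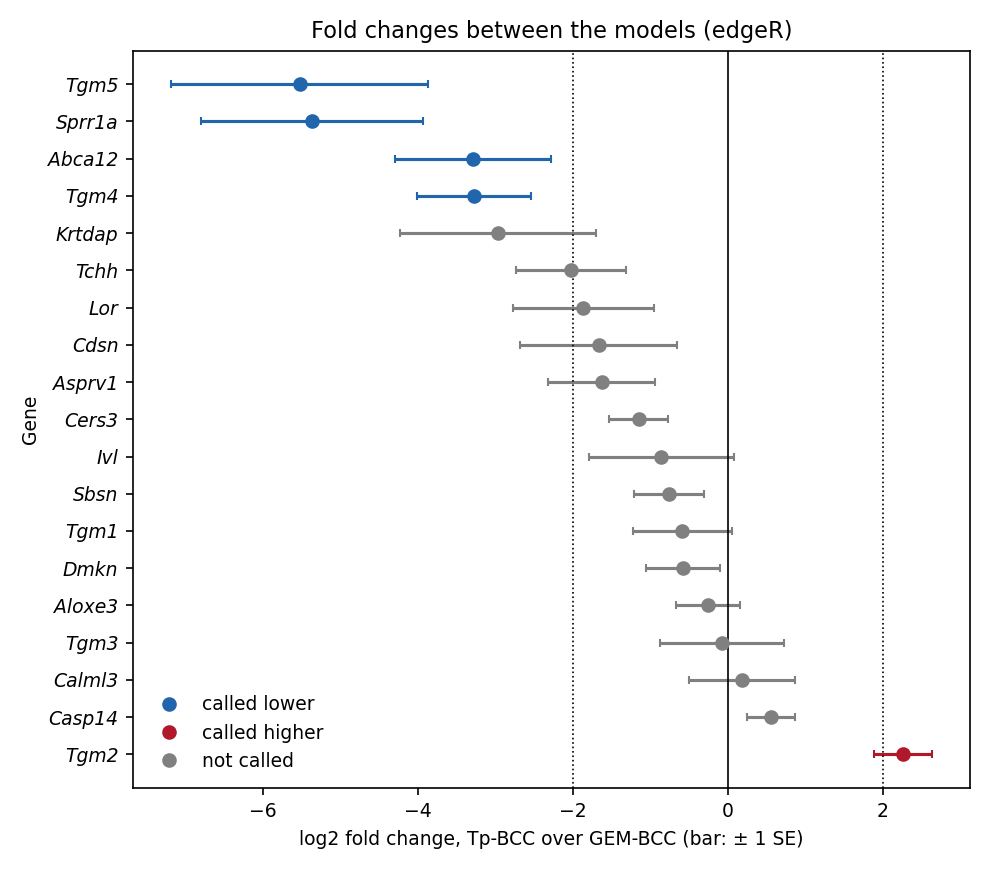
The log2 fold change of Tp-BCC over GEM-BCC is plotted for each of the 19 tested genes, with bars of 1 SE from edgeR and dotted lines at the fold threshold of 2. Points run from -5.53 for Tgm5 to 2.26 for Tgm2, with 4 genes called lower, 1 called higher and 14 not called.

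The promoter stretches of the 4 genes called lower are shown because the results name these genes as lower in Tp-BCC. Each line gives the 150 bases before the annotated start, 5′ to 3′ on the gene's strand, from RefSeq on GRCm38.p6, with matches to the searched motifs in capitals. The stretches lie at chr3:92485882-92486031 (minus strand, Sprr1a), chr2:121085842-121085991 (minus, Tgm5), chr1:71414911-71415060 (minus, Abca12) and chr9:123034591-123034740 (plus, Tgm4).
Sprr1a: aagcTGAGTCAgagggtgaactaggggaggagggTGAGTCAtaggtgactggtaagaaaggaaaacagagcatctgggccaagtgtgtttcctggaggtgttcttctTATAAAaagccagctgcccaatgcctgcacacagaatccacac
Tgm5: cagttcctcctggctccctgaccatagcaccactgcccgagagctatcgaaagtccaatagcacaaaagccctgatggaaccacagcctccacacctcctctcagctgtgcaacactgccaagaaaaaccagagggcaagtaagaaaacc
Abca12: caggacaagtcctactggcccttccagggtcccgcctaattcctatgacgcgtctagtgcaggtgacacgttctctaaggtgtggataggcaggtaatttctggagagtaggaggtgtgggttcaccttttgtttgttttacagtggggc
Tgm4: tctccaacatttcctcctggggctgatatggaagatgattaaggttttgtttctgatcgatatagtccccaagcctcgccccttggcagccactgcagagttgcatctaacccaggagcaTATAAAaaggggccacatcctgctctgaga

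In the 250 bases before the start, 4 motifs were searched on both strands, with N for any base. The AP-1 motif was spelled TGANTCA. The TATA box was spelled TATAAA. The motif of Grainyhead-like factors was spelled AACCNGTT, and that of AP-2 was spelled GCCNNNGGC. The table held promoters for 25 of the 30 genes and 16 of the 19 tested, and lacked Aloxe3, Calml3, Tgm2, Kprp and Lce1f. Sprr1a held the AP-1 motif at 2 places, beginning at positions -146 and -116 from the start, and the TATA box at -43. Tgm4 held the TATA box alone, at -30, and Tgm5 and Abca12 held none of the 4. Among the 16 tested genes with a promoter, 6 held the AP-1 motif (37.5%, against 7.82% of 27025 genes in the table) and 6 held the TATA box (37.5% against 14.3%). Besides Sprr1a, the tested genes with the AP-1 motif were Ivl, Lor, Krtdap, Dmkn and Sbsn. None of the 16 held the Grainyhead-like (2% of all genes) or the AP-2 motif (15.4%). Matches to different motifs did not overlap in these genes. A match describes letters in this window and does not show that a factor binds there.

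Among the 4 tested envelope precursors, Sprr1a was called lower. Sprr1a encodes a small proline-rich protein that is cross-linked into the envelope. Its level in GEM-BCC ran from 0.569 CPM in GEM3 through a median of 8.44 CPM to 141 CPM in GEM4, and it was 0.648, 0.900, 0.419 and 1.14 CPM in TP1 to TP4. GEM4, GEM5, GEM6 and GEM7 were high, at 35.4 to 141 CPM, and only GEM3 fell inside the Tp-BCC range. The log2 fold change was -5.37 ± 1.43 (SE, adjusted P = 0.0174). In an exact two-sided permutation test of log2 CPM over all 715 splits, the adjusted P was 0.0777. Without TP2, the adjusted P of the edgeR fit was 0.0534.

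The 3 other tested precursors were not called. Trichohyalin (Tchh), a protein of the hair follicle's inner root sheath that is also cross-linked, ranged from 0.472 to 6.01 CPM in GEM-BCC and from 0.386 to 1.20 CPM in Tp-BCC (log2 fold change -2.03 ± 0.71, adjusted P = 0.0565). With counts summed per mouse, Tchh was called lower (-2.21, adjusted P = 0.0390), and also after GC correction (-2.13, adjusted P = 0.0493). The call was also made with DESeq2 (-2.06, adjusted P = 0.0105). Loricrin (Lor), the most abundant envelope protein of normal epidermis, did not exceed 1.37 CPM in any tumor (-1.87 ± 0.91, adjusted P = 0.156). Involucrin (Ivl), an early scaffold protein, ranged from 0.0363 to 3.56 CPM in GEM-BCC and from 0.143 to 1.20 CPM in Tp-BCC (-0.86 ± 0.94, adjusted P = 0.542). Together the 12 precursors with values summed to 2.58 to 154 CPM across GEM-BCC tumors but 1.86 to 3.35 CPM across Tp-BCC tumors, so the lowest GEM-BCC tumor lay within the Tp-BCC range.

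Another 8 precursors were below the count filter and were not tested. The 6 Lce rows in both models (late cornified envelope proteins) did not exceed 8 counts in any tumor. Sprr1b and Kprp, picked out after their values were seen because each passed 100 counts in a tumor, reached 167 counts in GEM7 and 107 counts in GEM4, respectively. Summed over tumors, Sprr1b had 221 counts in GEM-BCC and 2 in Tp-BCC, and Kprp, a keratinocyte proline-rich protein, had 143 and 2. GEM7 alone gave 167 of the 221, and GEM4 alone 107 of the 143.

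Transglutaminases moved in opposite directions. Tgm5, an epidermal cross-linking enzyme, had 1 to 1084 expected counts in GEM-BCC tumors (0.0316 to 34.5 CPM, median 2.80 CPM) and 6, 2, 3 and 1 counts in TP1 to TP4 (0.353, 0.129, 0.180 and 0.0714 CPM). GEM7 and GEM2 stood out at 34.5 and 30.1 CPM, whereas GEM1 lay within the Tp-BCC range and GEM3 below it. The log2 fold change was -5.53 ± 1.66 (adjusted P = 0.0295, exact permutation adjusted P = 0.121), and the call was lost when any 1 of the 4 Tp-BCC tumors was left out, with adjusted P from 0.0556 to 0.0859. Tgm7, next to Tgm5 on chromosome 2 in the RefSeq gene order, was not tested, but its highest counts were in the same 2 tumors (42 in GEM2 and 27 in GEM7, at most 11 in the other tumors).

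Tgm4, known as the prostate transglutaminase, was weakly detected, at 0.164 to 0.486 CPM in GEM-BCC (median 0.419 CPM) and at 0.0589, 0, 0 and 0.0714 CPM in TP1 to TP4. Every Tp-BCC tumor lay below every GEM-BCC tumor. This was so for 1 of the 19 genes, against 4.45% of all genes. In counts, 99 reads over 9 GEM-BCC tumors compared with 2 over 4 Tp-BCC tumors, a depth-scaled ratio of 11.1 (95% exact interval 2.99 to 93.0, counting error only). The test gave an adjusted P of 0.00656, and the exact permutation an adjusted P of 0.0163 at its smallest possible unadjusted P of 0.0014.

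Tgm2, the tissue transglutaminase found in many cell types outside the epidermis, went the other way. It ranged from 9.59 CPM in GEM4 through a median of 25.6 CPM to 59.1 CPM in GEM8, against 89.1, 180, 81.6 and 196 CPM in TP1 to TP4. All 4 Tp-BCC tumors were above all 9 GEM-BCC tumors, a pattern seen for 1 of the 19 genes and for 5.5% of all genes. The log2 fold change was 2.26 ± 0.37 (adjusted P = 0.000776, exact permutation adjusted P = 0.0163). It fell just under the fold threshold without TP4 (1.99, adjusted P = 0.00435) and after correction for GC content (1.90, adjusted P = 0.000859). GEM4, with the highest Sprr1a, had the lowest Tgm2.

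Tgm1, the main transglutaminase of the epidermis, and Tgm3, its partner in the upper layers and hair follicle, were not called. Tgm1 ranged from 0.727 CPM in GEM2 through a median of 3.26 CPM to 13.4 CPM in GEM4 and was 1.82, 3.41, 1.26 and 4.00 CPM in TP1 to TP4 (log2 fold change -0.59 ± 0.64, adjusted P = 0.540). The Tp-BCC values sat inside the GEM-BCC range. Tgm3 ranged from 0.0316 to 1.53 CPM in GEM-BCC and 0.143 to 0.958 CPM in Tp-BCC (-0.08 ± 0.80, adjusted P = 0.955). Tgm6 had at most 2 counts in any tumor.

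**Figure D2:**
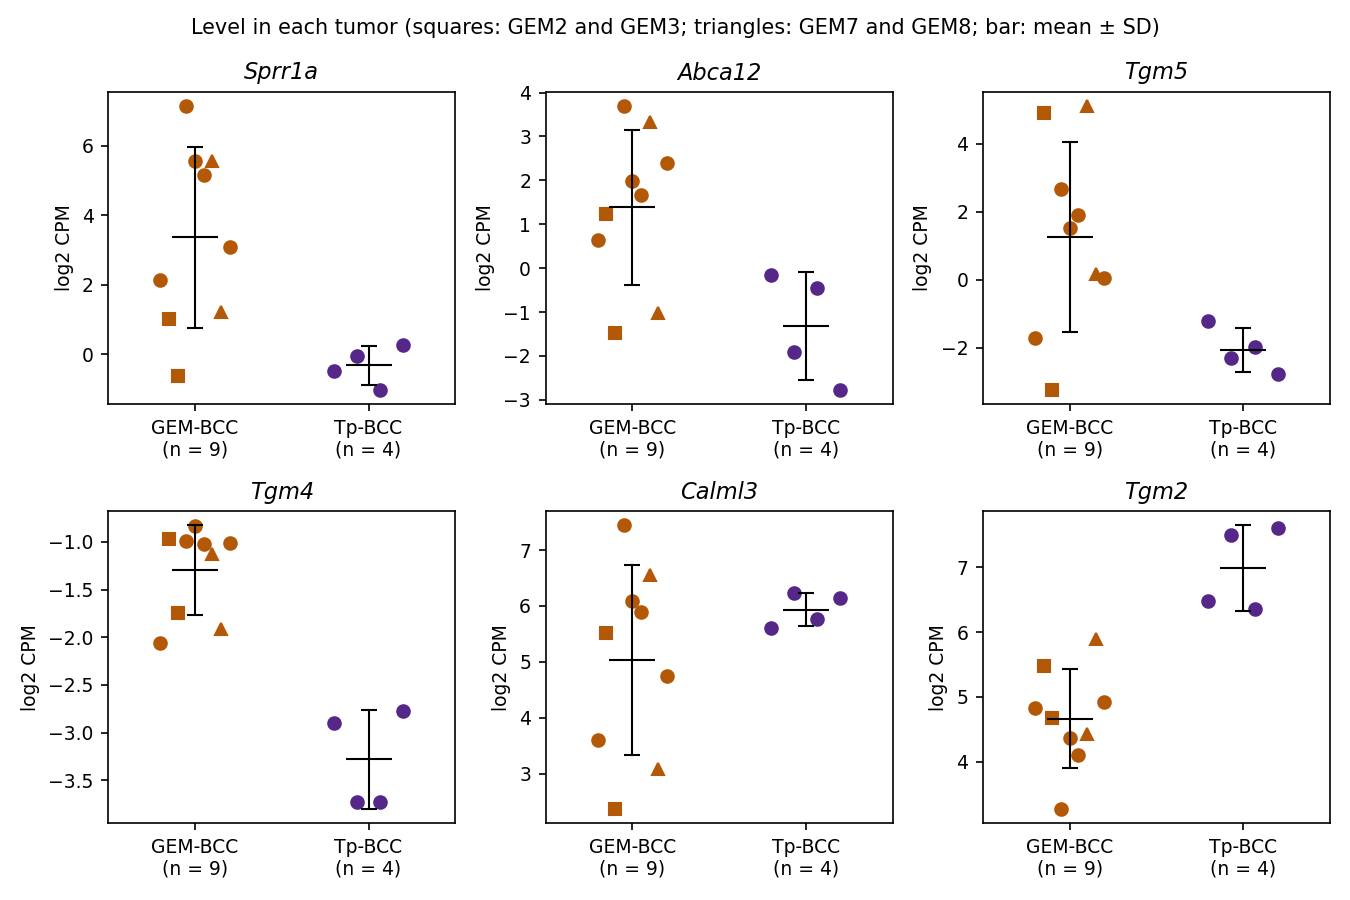
Points show log2 CPM (prior count 2) in each of 9 GEM-BCC and 4 Tp-BCC tumors for the 5 called genes and Calml3, with the mean ± SD as a bar. Tgm4 and Tgm2 do not overlap between the models, whereas GEM3 falls among or below the Tp-BCC tumors for Sprr1a, Abca12 and Tgm5, and Calml3 spans the Tp-BCC range on both sides.

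Of the barrier lipid genes, Abca12 was called lower and Cers3 was lower by adjusted P alone. Abca12, which loads glucosylceramides into lamellar granules, ranged from 0.285 CPM in GEM3 through a median of 3.11 CPM to 12.8 CPM in GEM4 and was 0.824, 0.193, 0.658 and 0.0714 CPM in TP1 to TP4. GEM3 and GEM8 overlapped with Tp-BCC. Its log2 fold change was -3.29 ± 1.01 (adjusted P = 0.0323, exact permutation adjusted P = 0.0871), and the adjusted P rose to 0.0985 without TP2, 0.0934 without TP4 and 0.0504 without GEM7.

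Cers3, which makes the very long chain ceramides of the epidermis, passed the adjusted P but not the fold threshold. Its level ran from 5.42 CPM in GEM1 through a median of 8.70 CPM to 14.8 CPM in GEM4, against 6.18, 2.70, 5.39 and 2.14 CPM in TP1 to TP4. TP1 exceeded 3 of the GEM-BCC tumors (GEM1, GEM5 and GEM8), and the other Tp-BCC tumors lay below all 9. The log2 fold change was -1.15 ± 0.38 (adjusted P = 0.0468). After GC correction it was -0.77 (adjusted P = 0.0548), and with counts summed per mouse -1.11 (adjusted P = 0.0593). The lipoxygenase Aloxe3 ranged from 0.314 to 1.17 CPM in GEM-BCC and 0.450 to 0.765 CPM in Tp-BCC (-0.26 ± 0.41, adjusted P = 0.684), and its partner Alox12b, with at most 14 counts in a tumor, was not tested.

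The 5 secreted and suprabasal proteins were not called, with adjusted P from 0.110 to 0.875. Suprabasin (Sbsn) ranged from 9.90 CPM in GEM3 through a median of 63.0 CPM to 132 CPM in GEM4 and was 34.5, 45.8, 40.9 and 42.2 CPM in TP1 to TP4 (log2 fold change -0.76 ± 0.45, adjusted P = 0.250). Dermokine (Dmkn) ranged from 16.2 through a median of 48.7 to 168 CPM in GEM-BCC and was 37.1, 41.0, 42.9 and 53.6 CPM in Tp-BCC (-0.58 ± 0.48, adjusted P = 0.414). For both genes the Tp-BCC tumors lay close together inside a wide GEM-BCC range.

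Calml3, a calmodulin-like protein of differentiating epithelium, ranged from 5.09 CPM in GEM3 through a median of 45.7 CPM to 174 CPM in GEM4, and was 48.6, 74.9, 54.5 and 70.3 CPM in TP1 to TP4 (log2 fold change 0.18 ± 0.68, adjusted P = 0.875). Corneodesmosin (Cdsn), which holds corneocytes together, ranged from 0.224 CPM in GEM8 through a median of 1.03 CPM to 16.9 CPM in GEM4 and was 1.12, 1.35, 1.08 and 1.36 CPM in TP1 to TP4 (-1.67 ± 1.01, adjusted P = 0.256). All 4 Tp-BCC values of Cdsn exceeded the GEM-BCC median although the fitted fold was negative. Krtdap, a secreted keratinocyte differentiation protein, ranged from 0.0949 to 11.2 CPM in GEM-BCC and 0.118 to 0.857 CPM in Tp-BCC (-2.97 ± 1.27, adjusted P = 0.110). With DESeq2, Krtdap was called lower (-2.99, adjusted P = 0.0165).

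The 2 proteases that process filaggrin were not called either. Asprv1 ranged from 7.79 CPM in GEM1 through a median of 20.6 CPM to 106 CPM in GEM4, against 9.60, 19.3, 10.6 and 16.2 CPM in TP1 to TP4 (log2 fold change -1.63 ± 0.69, adjusted P = 0.110). Caspase 14 (Casp14) ranged from 2.37 CPM in GEM5 through a median of 4.73 CPM to 7.82 CPM in GEM8 and was 7.30, 8.49, 6.05 and 5.93 CPM in TP1 to TP4 (0.55 ± 0.31, adjusted P = 0.221). Casp14 was 1 of 3 genes with a positive log2 fold change, with Calml3 and Tgm2, and after GC correction it passed the adjusted P (1.05, adjusted P = 0.0282).

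Per kilobase of transcript, the highest median levels in GEM-BCC were those of Calml3 (32.1 CPM per kb), Sbsn (28.4), Dmkn (23.6), Asprv1 (13.3) and Sprr1a (10.5). In Tp-BCC the order was Calml3 (43.9 CPM per kb), Tgm2 (37.5), Dmkn (20.3), Sbsn (18.7) and Asprv1 (8.66), with Sprr1a at 0.960. Lengths were those of the longest annotated protein-coding transcript of each gene in GENCODE vM21.

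GEM-BCC tumors differed from each other in these genes more than Tp-BCC tumors did. The median SD of log2 CPM over the 19 tested genes was 1.27 over the GEM-BCC tumors but 0.65 over the Tp-BCC tumors, against 0.44 and 0.58 for all genes tested. In 17 of the 19 the SD was larger in GEM-BCC (89.47%), against 37.17% of all genes. With 9 tumors from 7 animals on 1 side and 4 tumors of 1 line on the other, the sources of spread are not the same. GEM4 was the highest GEM-BCC tumor for 10 of the 19 genes (8.29% of all genes) and was above the GEM-BCC median for 17 (41.8% of all genes). GEM7 was above that median for 14 genes (44.1% of all genes), GEM5 for 12 (39.6%), GEM6 for 12 (42.9%), GEM2 for 7 (48.3%), GEM9 for 5 (42.9%), GEM8 for 4 (50.3%), GEM3 for 3 (44.8%) and GEM1 for 2 (44.9%). The TP1 to TP4 tumors were above it for 7, 6, 6 and 7 genes, against 48.9% to 50.6% of all genes.

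**Figure D3:**
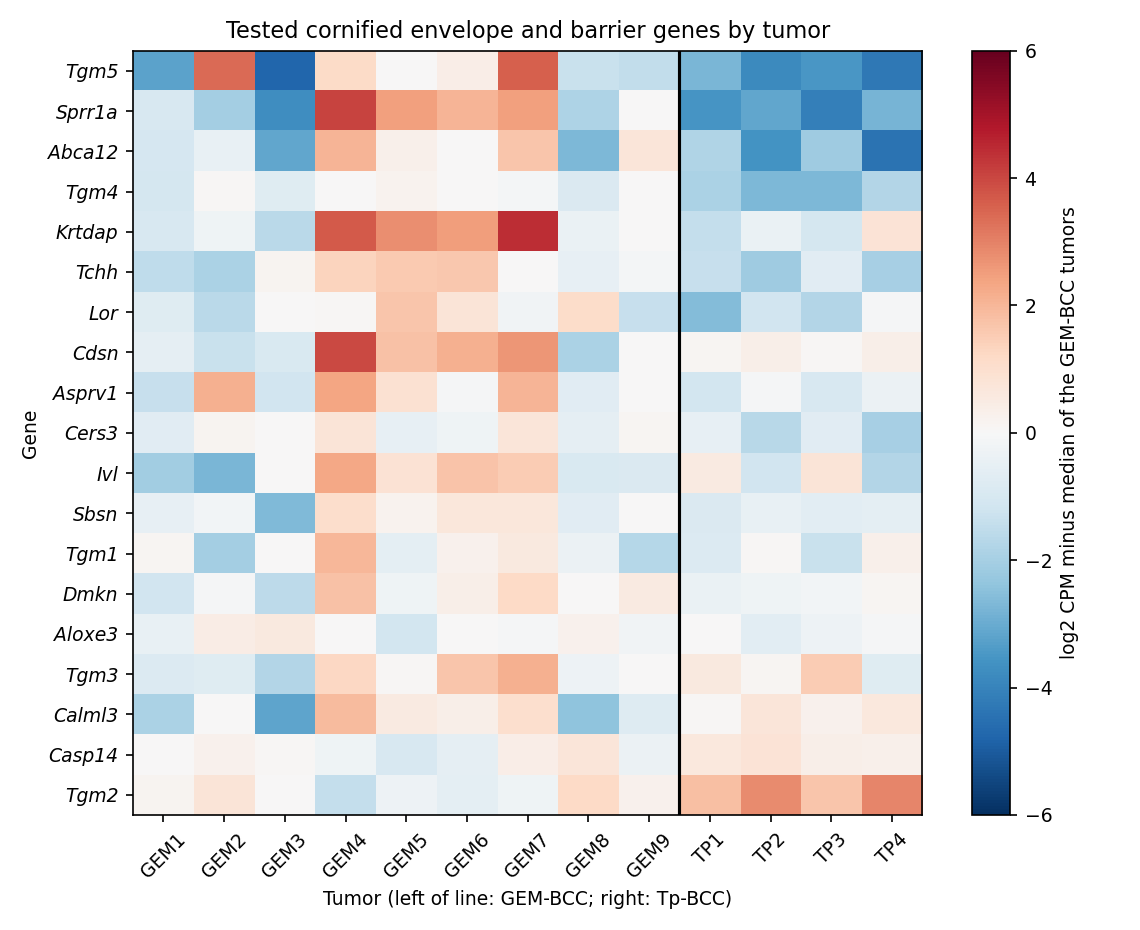
Each cell shows log2 CPM of a tested gene in a tumor minus the median of the 9 GEM-BCC tumors, with genes ordered by fold change. GEM4 to GEM7 are mostly red for the upper rows and GEM1, GEM3 and GEM8 mostly blue, while the 4 Tp-BCC columns are red at Tgm2. TP1 and TP3 are above TP2 and TP4 for Abca12, Cers3 and Ivl and below them for Tgm2 and Asprv1.

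Tumors from the same mouse could lie far apart. In GEM8, 15 of the 19 genes were lower than in GEM7 of the same animal (43.6% of all genes), 12 of them by more than 1 log2 unit (9.49% of all genes), with a median difference of -1.37 against 0.06 over all genes. Krtdap was 35.1-fold, Tgm5 32.7-fold, Cdsn 31.3-fold, Abca12 24.0-fold and Sprr1a 20.8-fold lower by CPM. Lor and Tgm2 were higher in GEM8. In GEM3, 13 of the 19 were lower than in GEM2 (53.0% of all genes), 9 of them by more than 1 log2 unit (11.8%). Tgm5 showed the widest gap, with 828 counts in GEM2 and 1 in GEM3. Ivl, Tchh, Tgm1 and Lor were higher in GEM3 than in GEM2, by 2.73, 2.06, 2.06 and 1.62 log2 units. Each side of these pairs is 1 library, so the differences have no replicate check.

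**Figure D4:**
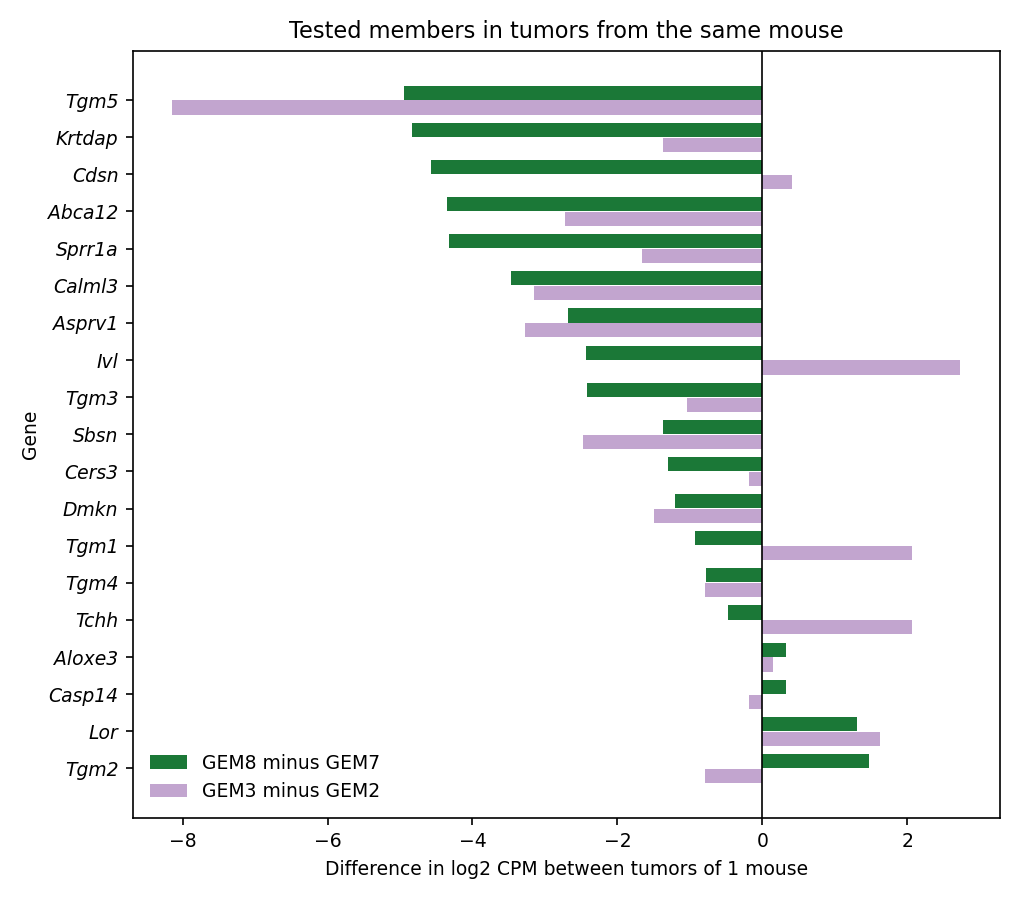
Bars give the difference in log2 CPM between both tumors of a mouse for each of the 19 tested genes, as GEM8 minus GEM7 and as GEM3 minus GEM2. For GEM8 minus GEM7, 15 bars point to the left. For GEM3 minus GEM2, 13 do, and Ivl, Tchh and Tgm1 point to the right by over 2 log2 units.

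The 32 rows with values in the GEM-BCC tumors only could not be compared between the models, and how values came to be absent in Tp-BCC is not given in the sources used here. In 18 of them at least 1 tumor had more than 3 counts, 10 of these with their highest count in GEM7, 5 in GEM4 and 3 in GEM5. The filaggrin relative Flg2 reached 361 counts in GEM4, and cornifelin (Cnfn) and repetin (Rptn) reached 112 and 111 counts there. Small proline-rich proteins of the Sprr2 cluster were concentrated in GEM7, which held 95.5% of their GEM-BCC counts. Of the Sprr2 counts in GEM7, 93.9% fell on Sprr2a1, Sprr2a2 and Sprr2a3, which are near-identical copies, so how reads were divided between them is uncertain. GEM4, the highest tumor for Sprr1a, had at most 3 counts in each of these 3 rows.

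**Figure D5:**
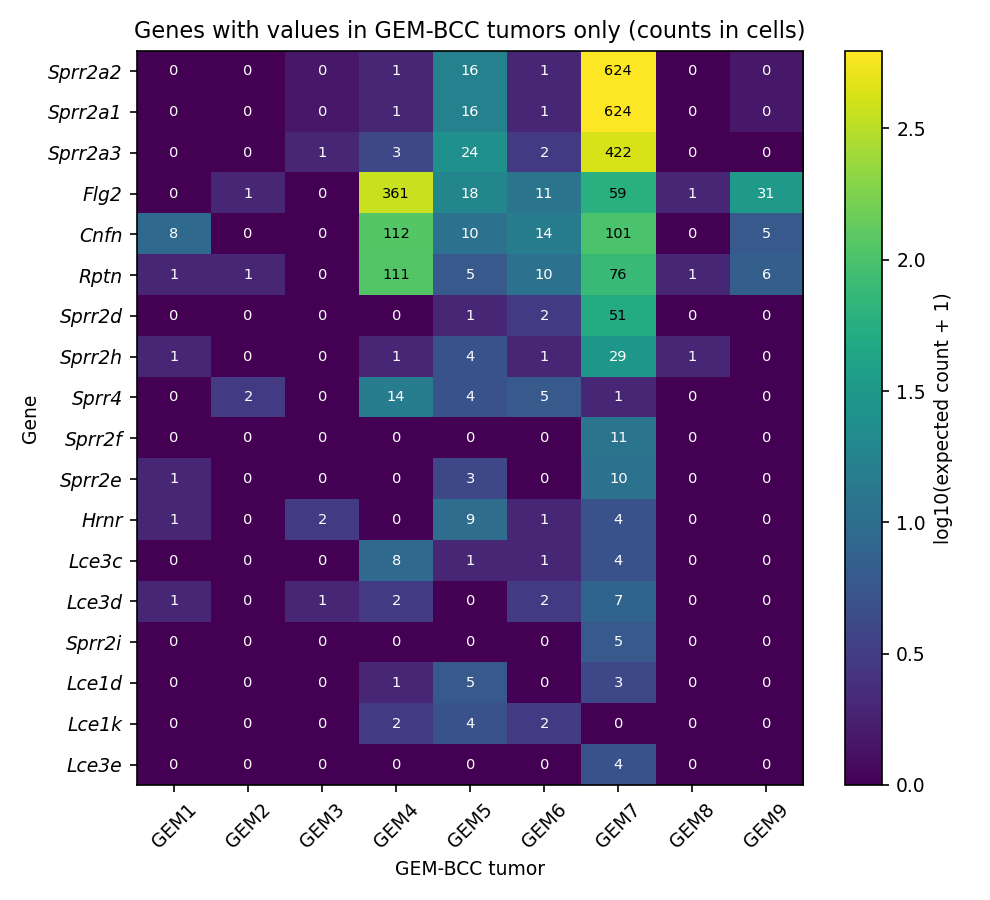
Expected counts of the 18 genes with values in GEM-BCC tumors only and over 3 counts in a tumor, with color on a log10(count + 1) scale. GEM7 holds the Sprr2 rows, with up to 624 counts, and GEM4 leads for Flg2, Cnfn and Rptn.

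Other genes of the same program were read from 6 lists of 91 genes, 80 of them tested. Of these, 22 were called lower (27.5%, against 3.21% of all genes). Spink5, Klk6, Klk7, Acer1, Krt77, Cyp4f39, Degs2, Dsg1c, Dsc1, Ovol1, Grhl3, S100a8, S100a9 and Crct1 had no Tp-BCC tumor at 10 counts. They met the filter through GEM-BCC tumors alone, so the shares of lower genes in these lists are not independent of the filter. When each tumor was left out in turn, 12 of the 22 kept their call in every fit that tested them, 10 lost it in at least 1, and 13 genes were called lower without TP2. By adjusted P alone, 29 were lower (36.2%, against 8.35% of all genes) and 5 higher (6.25%, against 11.1%), the 5 with log2 fold changes of at most 1.57. Among envelope and desmosome genes, 5 of 10 were called lower (median log2 fold change -1.82): Perp, a desmosomal p53 target (-2.18 ± 0.62), Dsc1, Dsg1a, Dsg1b and Dsg1c. The 3 Dsg1 genes are close copies that can share reads. Perp stood at 2540 CPM in GEM4 against a GEM-BCC median of 394 CPM, and its log2 fold change was -1.50 without GEM4, under the fold threshold. Its adjusted P was 0.0589 without TP2 and 0.0727 without TP4. Dsg1b fell under the fold threshold in 6 of 13 fits without 1 tumor (-1.72 without TP4). Desmoplakin (Dsp) passed the adjusted P without the fold (-1.63 ± 0.37, adjusted P = 0.00724), and plakoglobin (Jup) did not (-0.03 ± 0.31, adjusted P = 0.961).

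Among suprabasal keratins, 2 of 6 tested were called lower, Krt10 (median 40.3 CPM in GEM-BCC and 6.83 CPM in Tp-BCC, log2 fold change -2.80 ± 0.68) and Krt77. Krt80 (-0.70 ± 0.46) and Krt23 (-0.83 ± 0.65) were not called. Of 12 desquamation genes, 5 were called lower. They were the kallikrein proteases Klk5 (a call lost in 9 of 13 fits without 1 tumor), Klk6 and Klk7, the inhibitor Spink5, listed at 0 counts in all 4 Tp-BCC tumors, and cystatin M/E (Cst6), at a median of 61.8 CPM in GEM-BCC and 1.15 CPM in Tp-BCC (-6.52 ± 1.18). Klk7 fell from a GEM-BCC median of 20.1 CPM to at most 0.0714 CPM in Tp-BCC. Ctsl, St14 and Prss8, the 3 of highest mean log2 CPM, were not called.

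Of 19 other lipid genes, 4 were called lower: Cyp4f39, a fatty acid hydroxylase, Alox12e (median 19.9 CPM in GEM-BCC and 0.368 CPM in Tp-BCC), the ceramidase Acer1 and the desaturase Degs2. Elovl1, a fatty acid elongase, passed the adjusted P upward (0.71 ± 0.23, adjusted P = 0.0396), and the lysosomal enzyme Smpd1 was not called. Of 15 S100 and other neighbors of the precursors in the epidermal differentiation complex, 3 were called lower (S100a8, S100a9 and Crct1), and each lost its call in at least 4 of 13 fits without 1 tumor. S100a8 and S100a9 were highest in GEM7 (3.12 and 3.37 CPM) but were at 0.0989 CPM each in GEM4, the highest tumor for Sprr1a. Which cell types gave their transcripts was not tested. S100a6 and S100a11 were not called, and S100a14 passed the adjusted P without the fold (-0.86 ± 0.22, adjusted P = 0.0151). S100a7a (1.49 ± 0.50, adjusted P = 0.0487) and S100a10 (0.94 ± 0.30, adjusted P = 0.0411) passed it upward without the fold.

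Of 18 transcription factors of keratinocyte differentiation, 3 were called lower: Grhl3 (-4.74 ± 0.84), Ovol1 (-5.05 ± 0.94) and Zfp750 (-2.79 ± 0.62). Klf4, also a factor of the upper epidermis, moved upward without reaching the fold threshold, from a median of 64.8 CPM in GEM-BCC to 173 CPM in Tp-BCC (1.57 ± 0.19, adjusted P = 5.72e-05). Vdr (-0.26 ± 0.29) and Trp63 (-0.83 ± 0.36), a factor of basal keratinocytes, were not called.

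Markers of other cells moved with the models too. The lists are small, and of all genes tested 3.21% were called lower and 2.36% higher. By adjusted P alone, 8.35% of all genes were lower and 11.1% higher. Of stress and wound keratins, 2 of 3 tested were called lower (Krt6a and Krt16), with the sum at 11.9 to 537 CPM in GEM-BCC and 5.71 to 17.4 CPM in Tp-BCC. Of infundibulum and companion layer genes, 2 of 3 were called lower (Krt79 and Krt75), and Krt75 was at most 0.193 CPM in Tp-BCC. Of hair inner root sheath and shaft genes, 2 of 7 were called lower (Krt71 and Krt73; list sum 35.9 to 89.2 CPM in GEM-BCC and 18.3 to 52.7 CPM in Tp-BCC), and of sebaceous gland genes 1 of 4 was (Cidea, a call lost in 7 of 13 fits without 1 tumor; list sum 89.8 to 251 CPM and 43.2 to 209 CPM). Krt75 and Krt73 had no Tp-BCC tumor at 10 counts and met the filter through GEM-BCC tumors alone. These lists mark skin structures that also hold cornifying cells.

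All 5 tested adipocyte markers were called higher in Tp-BCC, against 2.36% of all genes. The whole adipocyte list summed to 0.514 to 3.54 CPM in GEM-BCC and 21.0 to 306 CPM in Tp-BCC, highest in TP2. Retn had no count in any GEM-BCC tumor. Cidec, Car3 and Cfd had at most 7 counts in any GEM-BCC tumor and met the filter through the Tp-BCC tumors alone. Their calls are thus not independent of the filter, and they were not tested when a Tp-BCC tumor was left out. Without TP2, Adipoq was no longer called (log2 fold change 1.88, adjusted P = 0.152), while Fabp4 kept its call. Of 5 skeletal muscle genes, 1 was called higher (Atp2a1, at 0.132 to 0.575 CPM in GEM-BCC but 0.177 to 21.7 CPM in Tp-BCC), and without TP4 its log2 fold change was 1.05 (adjusted P = 0.30). The whole muscle list summed to 2.04 to 7.50 CPM and 2.06 to 153 CPM, highest in TP4. Of 8 fibroblast genes 1 was called higher (Pdgfra, at 181 to 399 CPM in GEM-BCC but 245 to 1560 CPM in Tp-BCC), a call lost without TP1 or TP3 (log2 fold change 1.87 each time). By adjusted P alone, 2 were higher, Pdgfra and Fbln1 (1.88 ± 0.37, adjusted P = 0.00269). The 2 lower by adjusted P were Dpt (-1.80 ± 0.37, adjusted P = 0.00384) and Col1a1 (-1.12 ± 0.38, adjusted P = 0.0497). The 8 genes together summed to 12200 to 49100 CPM and 15700 to 28500 CPM. Of 4 leukocyte and macrophage genes, Cd68 passed the adjusted P upward without the fold, at 8.17 to 39.7 CPM in GEM-BCC but 35.4 to 67.2 CPM in Tp-BCC. Ptprc (-0.06 ± 0.67, adjusted P = 0.957), Adgre1 (-0.14 ± 0.40, adjusted P = 0.827) and Csf1r (0.29 ± 0.37, adjusted P = 0.607) did not pass it. The 4 genes summed to 27.1 to 98.6 CPM in GEM-BCC and 72.6 to 124 CPM in Tp-BCC. The only neutrophil gene tested, Csf3r, was not called. Tgm2 was highest in TP4 and TP2, the tumors highest in muscle and adipocyte markers, and their part in its level was not tested. In bulk tissue, fewer cells of a type and less RNA per cell cannot be told apart.

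GC content also moved with tumors. Across 14095 genes, which are not independent replicates, the rank correlation of a gene's level relative to its mean with GC content was -0.389 and -0.473 in TP1 and TP3 but 0.594 and 0.591 in TP2 and TP4. The 19 tested genes had 45.2% to 68.3% GC (median 54.1%, all genes 51.3%). With a GC correction per tumor, Sprr1a (-5.67), Tgm5 (-5.53), Abca12 (-3.07) and Tgm4 (-3.07) were still called lower, and Tgm2 was not called. Without TP2, Tgm4 alone was called lower of the 19 genes, and without TP4 Sprr1a and Tgm4 were.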

How the data were processed

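Poly(A) RNA of 13 tumors was sequenced with 1 library per tumor. Per the submitters' processing notes and methods, the authors cleaned reads with SOAPnuke, aligned them with Bowtie2 2.3.4.3 to GRCm39 transcripts and quantified genes with RSEM 1.3.1 in strand-specific mode. The deposited values are RSEM expected counts per gene, not normalized. They were rounded to whole numbers. Genes valued in all 13 tumors that reached 10 counts in 4 or more of them entered edgeR 4.0.16 in R 4.3.3 (TMM, quasi-likelihood F test, robust dispersions, two-sided, Benjamini-Hochberg over all 14390 genes). No batch term could be fitted. SE is the log2 fold change divided by the square root of F. CPM used TMM-scaled library sizes, and log2 CPM a prior count of 2. The fit was tested on simulated counts. Alternatives included DESeq2 1.42.0, other scalings and filters, sums per mouse, a GC offset (lowess span 0.3, GENCODE vM21) and each tumor left out. Total counts per tumor limit precision, and intervals cover counting error only. RefSeq and GENCODE annotate GRCm38 and served for names, gene order, GC, length and promoters.

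Genes named with values were those called or past the adjusted P, the 10 of highest mean log2 CPM and those with a positive fold change, with the other tested genes given by range. From the other lists, called genes and the 3 of highest mean log2 CPM of each pathway list were named, apart from a few genes not reported here. The genes, lists and rules were chosen with earlier results of these data known. Tumors from 1 mouse or 1 line are not independent animals, so P-values measure the spread between these tumors.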

Additional observations from a re-analysis of the deposited data

Results flagged for a closer look

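Sbsn in GEM3 stood apart from the other GEM-BCC tumors, at 3.32 log2 CPM against 5.32 to 7.05 in the other 8 (Dixon's test). It was the 1 flagged of 38 gene and model groups examined, and chance flags about 1 in 20.

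Genes with values in the GEM-BCC tumors only lay outside the comparison, and 18 of them rose above the 3 counts that a count of 0 allows in at least 1 tumor. In GEM7 the highest expected counts were 624 for Sprr2a1, 624 for Sprr2a2, 422 for Sprr2a3, 51 for Sprr2d, 29 for Sprr2h, 11 for Sprr2f, 10 for Sprr2e, 7 for Lce3d, 5 for Sprr2i and 4 for Lce3e. In GEM4 they were 361 for Flg2, 112 for Cnfn, 111 for Rptn, 14 for Sprr4 and 8 for Lce3c. In GEM5 they were 9 for Hrnr, 5 for Lce1d and 4 for Lce1k. Their levels in Tp-BCC tumors were not analysed here.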

How the results depend on the processing

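Of 469 comparisons of a gene under an alternative setting, 423 kept their direction and side of the threshold, 23 no longer passed it, 6 newly passed it and 17 reversed. The median log2 fold change of the tested genes stayed between -1.63 and -0.60. With DESeq2, 6 genes were called lower, in place of 4, with Krtdap and Tchh added. By its adjusted P, 8 were lower, in place of 5, with Krtdap, Tchh and Asprv1 added. With counts summed per mouse, 5 were called lower and 1 higher, with Tchh added. With no filter on low counts, 2 were called higher and 2 passed the adjusted P upward, Lce1h being added. When 10 counts were required in 10 or more tumors, 13 genes were tested, 2 called lower and 3 lower by adjusted P. With the GC offset, 0 were called higher and 2 were higher by adjusted P (Casp14 and Tgm2). Shares of all genes under these settings are not given here, so the counts have no background beside them.

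Fits without any 1 tumor gave 1 to 5 genes called lower, 0 to 1 called higher, 1 to 6 lower by adjusted P and 1 to 2 with every Tp-BCC tumor lower. Counts moved by over 1.5 times without TP2 (1 called lower), without TP4 (2), without GEM7 (3 lower by adjusted P), and without GEM3 or TP1 (2 not overlapping). The cause was not tested.

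The tumor number does not pair tumors by origin, and same-numbered tumors correlated at -0.381, -0.122, -0.101 and -0.179 in their deviations. In fits with the number as a block, GEM5 to GEM9 each form a block of their own. The model contrast then rests on GEM1 to GEM4 and TP1 to TP4, so lost calls and reversals do not measure pairing. With the number as a replicate block, 0 genes were called lower, 0 called higher, 0 lower by adjusted P and 0 higher. With the block and the GC offset, 0 were called lower, 0 were lower by adjusted P, and Tgm2 was called higher (2.18, adjusted P = 0.0375). Log2 fold changes reversed under the block for Ivl (0.75), Cdsn (0.22), Dmkn (0.11) and Tgm3 (1.25), and with the GC offset added for Ivl (0.70), Cdsn (0.11), Dmkn (0.00) and Tgm3 (1.34). Tgm3 also reversed with the GC offset (0.00) and on the permutation scale (0.19). Without 1 tumor, Tgm3 ran from -0.67 to 0.34 and Calml3 from -0.03 to 0.64. A count of 0 allows up to 3 counts, so levels at or under 3 counts in a tumor are near the floor. This covers most Lce genes, and also Tgm4 in every Tp-BCC tumor and Tgm5 in TP2, TP3 and TP4.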
